A study of Mus musculus with 10 samples.

Results

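AMP-activated protein kinase (AMPK) genes were described in mouse heart RNA: the genes of its catalytic alpha, scaffold beta and nucleotide-binding gamma subunits, and those of the upstream kinases LKB1 (Stk11) and CaMKK2 (Camkk2) and of the LKB1 partner MO25 alpha (Cab39). The members were taken by gene symbol from the deposited expression table, and 8 of the 10 names were analysed among its 11790 genes, Prkaa1, Prkaa2, Prkab1, Prkab2, Prkag1, Prkag2, Stk11 and Cab39. Prkag3 and Camkk2 were not analysed here, and the table holds genes that reach at least 1.00 FPKM (fragments scaled by gene length and library size) in 1 heart or more. The study compared hearts of A-PDK1KO mice, in which 3-phosphoinositide-dependent kinase 1 (PDK1, gene Pdpk1) was deleted in adipocytes, with hearts of PDK1 flox/flox mice, which carry the floxed gene and served as controls. There were 5 hearts in each group, from mice killed at 10 to 11 weeks of age and randomly fed. The title presents the mouse as a model of diabetic heart disease. The sources used here do not give the promoter that drives the deletion, the sex or the diet. The labels number the heart samples 1 to 5 in each group but do not state that each came from a separate mouse, so p-values measure the spread between these samples.

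AMPK is a trimer of 1 alpha, 1 beta and 1 gamma subunit that is switched on when AMP and ADP rise against ATP. Binding of these nucleotides to the gamma subunit favours phosphorylation of a threonine in the activation loop of alpha, by LKB1 in a complex with the pseudokinase STRAD and the scaffold MO25, or by CaMKK2 when calcium rises. The active kinase promotes fatty acid oxidation, glucose uptake and autophagy and restrains synthesis of lipid and protein. Activity is set in part by phosphorylation. Transcript levels measure RNA, and neither the amount of subunit protein nor the state of the kinase.

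Implied library sizes ran from 9249257 to 11384423 reads. Some libraries stood apart. A-PDK1KO replicate 2 had 10723 genes at or above 1 FPKM, where the other 9 hearts had 9671 to 10214. Mitochondrially encoded genes took 32.7% (control replicate 4) to 41.5% (A-PDK1KO replicate 1) of counted reads, with 34.3% in A-PDK1KO replicate 2. The level of Myl7, which encodes the myosin light chain of atrial muscle, was 85.9 FPKM in control replicate 2 and 71.3 FPKM in control replicate 5. It was 35.0 and 47.6 FPKM in replicates 3 and 5 of the A-PDK1KO group and below 1 FPKM in the remaining 6 hearts. Pdpk1 was 3.14 to 3.77 FPKM in controls and 2.73 to 4.04 FPKM for A-PDK1KO, which checks no label, since the deletion is in adipocytes. The 7 cardiomyocyte markers summed to 14316 to 16981 FPKM (controls) and 13464 to 15337 FPKM (A-PDK1KO). In the same order, sums were 77.4 to 92.2 and 84.9 to 99.0 FPKM for endothelial markers, 101 to 121 and 96.5 to 119 for fibroblast markers, 118 to 185 and 119 to 152 for smooth muscle and pericyte markers, and 43.7 to 50.9 and 36.8 to 52.7 for macrophage markers. They were 214 to 579 and 184 to 268 FPKM for atrial markers, 27.9 to 1391 and 68.6 to 228 for erythroid markers, 776 to 1113 and 761 to 945 for skeletal muscle markers (Myh1, Myh2, Myh4 and Tnnt3 not analysed here), and 76.5 to 123 and 78.5 to 139 for adipocyte markers (Adipoq, Plin1 and Lep not analysed here). Ckm alone, counted in the skeletal muscle sum, was 546 to 747 and 532 to 607 FPKM. Cidea, the 1 brown adipocyte marker analysed (Ucp1 and Elovl3 not analysed here), was 24.2 to 32.7 and 28.0 to 33.2 FPKM. No tested gene of these 10 lists was called (limma adjusted p under 0.05), where 2.08% of all genes were. Only 1 of 5 adipocyte, 1 of 3 brown adipocyte and 2 of 7 skeletal muscle markers were tested. The median log2 difference was -0.33 for atrial, -0.27 for erythroid and -0.21 for skeletal muscle markers. In the other lists it was -0.11 (cardiomyocyte) to 0.07 (endothelial and fibroblast). The part of cell composition in the differences between genotypes was not tested, and in bulk RNA fewer cells of a type and less RNA per cell cannot be told apart.

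In control hearts the members spanned a wide range of levels per length. FPKM matched lengths that count all annotated exons of a gene. Levels set between genes, and the paralogue shares and sums below, therefore depend on which transcripts are in use, which was not measured. Prkag1 was the highest, at 33.4 ± 1.65 FPKM (mean ± SD, n = 5), followed by Stk11 at 24.5 ± 2.49, Cab39 at 13.4 ± 1.01, Prkaa2 at 12.6 ± 1.47, Prkab2 at 8.91 ± 1.05, Prkab1 at 6.11 ± 1.29, Prkag2 at 3.15 ± 0.345 and Prkaa1 at 2.51 ± 0.203 FPKM. The ranges of the 5 control hearts overlapped between Cab39 and Prkaa2 and between Prkab2 and Prkab1. Heart by heart, neither Cab39 nor Prkaa2 was higher in all controls, whereas Prkab2 was above Prkab1 in each (ratio 1.15 to 2.36). The other neighbours in this order did not overlap, although Prkaa2 (lowest 10.3) and Prkab2 (highest 10.2) came close, as did Prkag2 (lowest 2.71) and Prkaa1 (highest 2.69). Prkag1 stood above 90.6% of the 9987 genes tested and Prkaa1 above 32.2%.

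None of the 8 members was called different between the genotypes. The test was limma on log2(FPKM + 1) over all genes averaging at least 1 FPKM, with a Benjamini-Hochberg adjusted p under 0.05 as the threshold. Over all genes it called 208 of 9987 (2.08%), 121 higher (1.21%) and 87 lower (0.871%). The split was 323 higher and 67 lower with scaling that omits mitochondrially encoded and haemoglobin genes. Limma voom on the reads recovered from FPKM also called 0 members. At an unadjusted limma p under 0.05 there were 2 members, Prkab2 and Prkaa1, both with higher means in A-PDK1KO hearts, where 15.6% of all genes reached this p and 8.53% did so with a higher mean. The median log2 difference of the 8 members was 0.04, against 0.02 over all genes, and 6 of 8 lay above 0, against 54.6% of all genes. The 6 include Prkag1 (0.0021), Prkag2 (0.033) and Cab39 (0.041), which lay near 0 and changed sign in some other settings. The groups did not overlap for 1 member, Prkaa1, where 4.96% of all genes were separated in this way, 2.72% with A-PDK1KO higher. The 95% intervals reached from -0.25 at the lowest (Stk11) to 0.61 at the highest (Prkab2) on the log2(FPKM + 1) scale, where changes of low genes are understated.

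**Figure D1:**
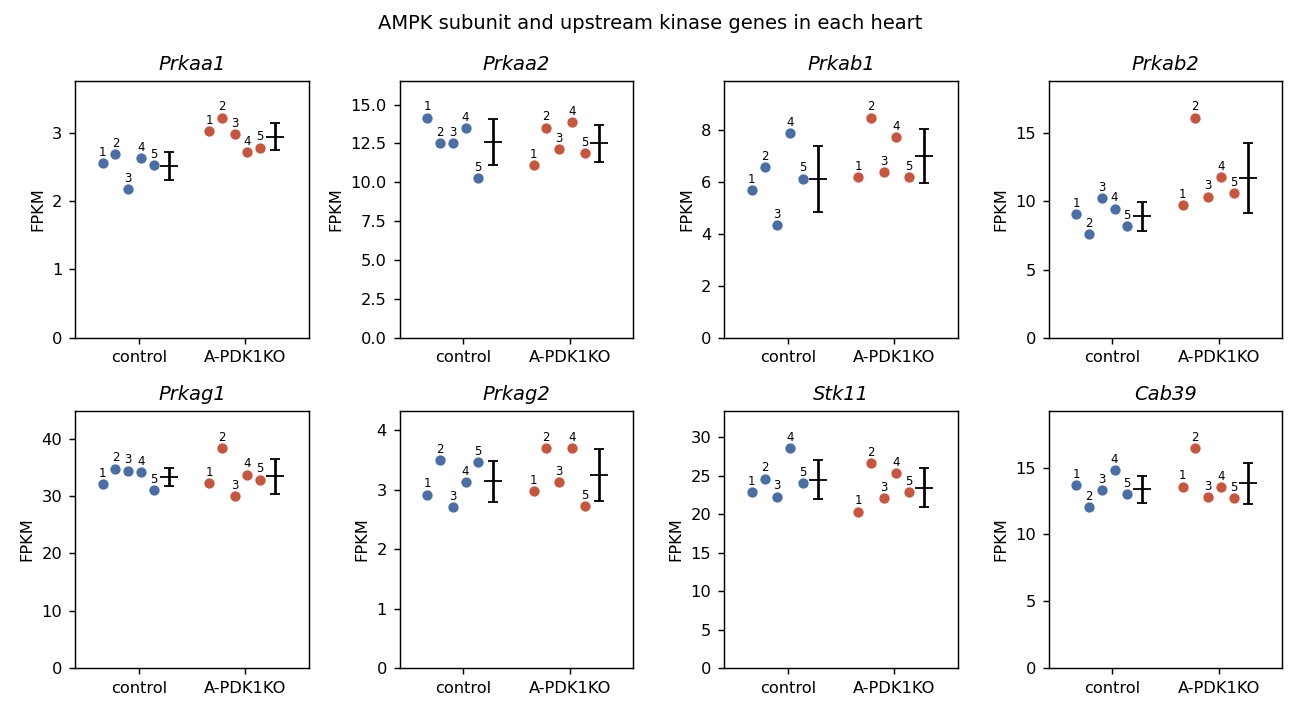
FPKM of the 8 AMPK subunit and upstream genes in each heart (y axes from 0, blue control, red A-PDK1KO, numbers are replicates, black bars are mean ± SD, n = 5 per group). The Prkaa1 points of the 2 genotypes do not overlap, those of Prkab2 overlap in 1 A-PDK1KO heart, and A-PDK1KO replicate 2 is the highest A-PDK1KO heart for 7 of the 8 genes.

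The catalytic subunit exists as alpha 1 (Prkaa1, chromosome 15, 5143861 to 5181899, mm10, plus strand) and alpha 2 (Prkaa2, chromosome 4, 105029874 to 105109890, minus strand), and alpha 2 is the form known to prevail in heart and skeletal muscle. Prkaa2 was measured at 14.2, 12.5, 12.5, 13.5 and 10.3 FPKM in control replicates 1 to 5 and, among A-PDK1KO hearts in the same order, at 11.1, 13.5, 12.1, 13.9 and 11.9 FPKM. The groups overlapped almost completely, and the log2 difference was -0.01 ± 0.09 (SE, 95% interval -0.20 to 0.19, limma adjusted p = 0.985). Prkaa1 was measured at 2.55, 2.69, 2.17, 2.62 and 2.53 FPKM in the controls and at 3.02, 3.22, 2.98, 2.72 and 2.78 FPKM in A-PDK1KO hearts. Every A-PDK1KO heart was above every control heart, and the nearest pair was control replicate 2 (2.69) and A-PDK1KO replicate 4 (2.72). The means differed 1.17-fold (log2 difference 0.17 ± 0.08, 95% interval 0.00 to 0.33, unadjusted p = 0.0451, limma adjusted p = 0.308), which did not pass. These values rest on 95 to 153 reads per heart for Prkaa1 and 847 to 1259 for Prkaa2.

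Alpha 2 made up most of the alpha transcripts in every heart. Its share of the summed alpha FPKM was 84.7, 82.3, 85.3, 83.7 and 80.2% in control replicates 1 to 5 and 78.6, 80.8, 80.3, 83.6 and 81.0% in A-PDK1KO replicates 1 to 5. The means were 83.2 ± 2.02% and 80.9 ± 1.82% (SD, n = 5), the ranges overlapped, and shares were given no test. The Prkaa2 to Prkaa1 ratio ran from 4.06 to 5.78 in controls and from 3.66 to 5.11 in A-PDK1KO hearts. The summed alpha level was 15.1 ± 1.51 and 15.4 ± 1.17 FPKM.

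The stretches upstream of the alpha and beta genes are printed because these are the paralogue pairs in which 1 gene had an unadjusted p under 0.05 and the other did not. They are from RefSeq, build GRCm38.p6, read 5′ to 3′ on the gene's strand and end before the first annotated exon base of the gene, and capitals mark GC boxes (GGGCGG, or its reverse complement CCGCCC, the letters bound by Sp1-type factors). The coordinates are chr15:5143611-5143860 (plus strand) for Prkaa1 and chr4:105109899-105110148 (minus strand) for Prkaa2.
Prkaa1: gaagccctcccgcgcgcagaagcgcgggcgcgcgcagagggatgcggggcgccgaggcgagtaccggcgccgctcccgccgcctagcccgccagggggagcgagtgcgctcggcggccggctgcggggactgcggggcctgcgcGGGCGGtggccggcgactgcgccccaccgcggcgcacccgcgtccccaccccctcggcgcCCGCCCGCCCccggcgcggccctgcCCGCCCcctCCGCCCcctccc
Prkaa2: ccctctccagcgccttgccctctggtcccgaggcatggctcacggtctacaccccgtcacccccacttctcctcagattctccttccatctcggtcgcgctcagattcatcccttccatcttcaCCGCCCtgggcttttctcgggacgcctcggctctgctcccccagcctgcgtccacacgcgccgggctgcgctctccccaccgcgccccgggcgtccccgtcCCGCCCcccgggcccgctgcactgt
The Prkaa1 stretch held 5 GC boxes, 2 of them overlapping, and 45 CpG dinucleotides in 250 bases. The Prkaa2 stretch held 2 GC boxes and 24 CpG. Over 32851 mouse promoter windows of the same 250 bases the median was 6 CpG, 99.6% had fewer than Prkaa1 and 88.0% fewer than Prkaa2, and 32.7% held at least 1 GC box. In all 10 genes named at the start, which have 12 such windows because Prkag2 has 3 start sites, no window held the FoxO element GTAAACA (3.17% of all windows), the E box CACGTG (6.02%) or the cyclic AMP element TGACGTCA (1.55%), searched on both strands. The MEF2 element (0.140%) was also in none, and the CCAAT box (33.9%) was in windows of Stk11, Prkag1 and Prkag2. A match or its lack describes the letters of this window only.

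The beta subunit holds alpha and gamma together and carries a glycogen-binding module. The stretches upstream of its genes are at chr3:97657962-97658192 (plus strand, 231 bases) for Prkab2, which encodes beta 2, and chr5:116024509-116024678 (minus strand, 170 bases) for Prkab1, which encodes beta 1.
Prkab2: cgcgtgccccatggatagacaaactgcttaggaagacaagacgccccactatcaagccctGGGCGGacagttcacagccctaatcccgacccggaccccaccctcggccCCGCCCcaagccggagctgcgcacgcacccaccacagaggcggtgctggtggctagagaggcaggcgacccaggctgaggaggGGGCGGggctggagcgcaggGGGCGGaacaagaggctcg
Prkab1: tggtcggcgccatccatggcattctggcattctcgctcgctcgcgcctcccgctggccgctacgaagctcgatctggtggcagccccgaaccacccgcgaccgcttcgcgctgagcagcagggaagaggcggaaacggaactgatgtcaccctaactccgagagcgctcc
They held 4 and 0 GC boxes. Prkab2 (chromosome 3, 97658193 to 97673812) had the lowest p of the members. It was measured at 9.06, 7.57, 10.2, 9.46 and 8.21 FPKM in control replicates 1 to 5 and, among A-PDK1KO hearts in the same order, at 9.74, 16.1, 10.3, 11.8 and 10.6 FPKM. In all 5 A-PDK1KO hearts it lay above the control mean, and in 4 of 5 above every control heart, with replicate 1 inside the control range. The means were 8.91 ± 1.05 and 11.7 ± 2.58 FPKM (SD, n = 5), a ratio of 1.31 (log2 difference 0.34 ± 0.12 SE, 95% interval 0.08 to 0.61, unadjusted p = 0.0153, limma adjusted p = 0.192). The difference did not pass under any setting tried, and the adjusted p ranged from 0.0769, with scaling that omits mitochondrially encoded and haemoglobin genes, to 0.658, among the 6 hearts with Myl7 under 10 FPKM.

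A-PDK1KO replicate 2 stood highest for Prkab2, and without it the log2 difference was 0.23 (limma adjusted p = 0.243). That heart also had the most genes at 1 FPKM and a low mitochondrial share, and with it and control replicate 4 both left out the difference was 0.25. Control replicates 2 and 5, the control hearts with Myl7, had the lowest Prkab2 values. The A-PDK1KO hearts with Myl7 were not the lowest of their group. Replicates 3 and 5 were at 10.3 and 10.6 FPKM, below replicates 2 (16.1) and 4 (11.8) and above replicate 1 (9.74). With Myl7 as a covariate the Prkab2 difference was 0.33, and it was also 0.33 in the 6 hearts with Myl7 under 10 FPKM. The cause of the spread in Prkab2 was not tested.

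Prkab1 (chromosome 5, 116013586 to 116024508) was measured at 5.68, 6.56, 4.33, 7.86 and 6.12 FPKM in the controls and at 6.19, 8.47, 6.38, 7.71 and 6.17 FPKM in A-PDK1KO hearts. Control replicate 3 was the lowest and the groups overlapped (log2 difference 0.18 ± 0.13, 95% interval -0.10 to 0.46, limma adjusted p = 0.570). The Prkab2 share of the summed beta FPKM was 61.5, 53.6, 70.3, 54.6 and 57.3% in control replicates 1 to 5. It was 61.1, 65.6, 61.8, 60.4 and 63.1% in A-PDK1KO replicates 1 to 5. The control shares spanned the whole A-PDK1KO range, with means of 59.4 ± 6.78% and 62.4 ± 2.02%. The summed beta level was 15.0 ± 1.31 FPKM in controls, near the alpha sum as measured (beta to alpha ratio 1.00 ± 0.0990). It was 18.7 ± 3.56 FPKM in A-PDK1KO hearts (ratio 1.20 ± 0.151, ranges overlapping).

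**Figure D2:**
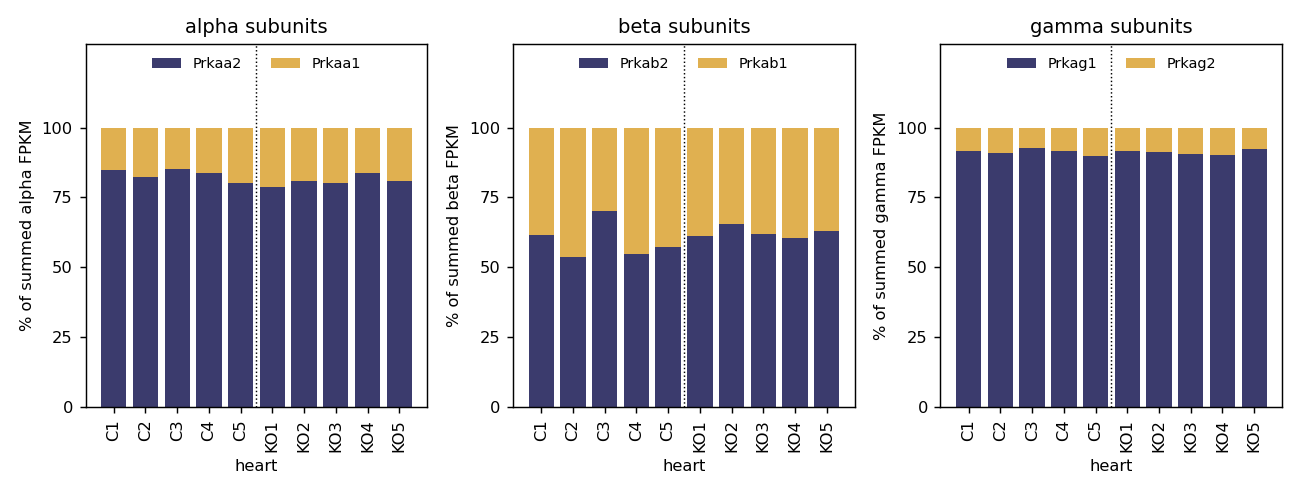
Share of each paralogue in the summed FPKM of its subunit class in each heart (bars stacked to 100%, C control and KO A-PDK1KO, numbers are replicates). Prkaa2 takes 78.6 to 85.3% of alpha, Prkab2 53.6 to 70.3% of beta and Prkag1 89.96 to 92.7% of gamma over the 10 hearts, with overlapping genotypes in all 3 classes.

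The gamma subunit binds AMP, ADP and ATP, and gamma 2 (Prkag2) is known for human variants that cause a glycogen-storage heart disease with pre-excitation. Prkag1 (chromosome 15, 98812797 to 98831521) was the steadiest member among controls, with a coefficient of variation of 4.93%, and spanned 31.1 to 34.8 FPKM among controls and 30.01 to 38.4 FPKM among A-PDK1KO hearts (log2 difference 0.00 ± 0.07, 95% interval -0.15 to 0.15, limma adjusted p = 0.993). Prkag2 (chromosome 5, 24862744 to 25100642) was measured at 2.92, 3.50, 2.71, 3.13 and 3.47 FPKM in the controls and at 2.98, 3.71, 3.13, 3.70 and 2.73 FPKM in A-PDK1KO hearts. The groups overlapped (log2 difference 0.03 ± 0.09, 95% interval -0.17 to 0.23, limma adjusted p = 0.915). Gamma 1 transcripts exceeded those of gamma 2 by 10.7 ± 1.41 times in controls and 10.4 ± 1.15 times in A-PDK1KO hearts, and the gamma sum was 2.44 ± 0.232 and 2.38 ± 0.148 times the alpha sum. The gamma levels are uncertain: of the exonic bases, 43.7% in Prkag1 and 14.5% in Prkag2 overlap annotated antisense genes, and the sources used here do not give the strand setting of the counting.

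Stk11 (chromosome 10, 80115803 to 80130682), which encodes LKB1, was measured at 22.9, 24.6, 22.3, 28.6 and 24.1 FPKM in control replicates 1 to 5 and, among A-PDK1KO hearts in the same order, at 20.4, 26.6, 22.1, 25.4 and 22.9 FPKM. The groups overlapped (log2 difference -0.06 ± 0.09, 95% interval -0.25 to 0.13, limma adjusted p = 0.801). Cab39 (chromosome 1, 85793441 to 85851576), the scaffold that stabilises LKB1 with STRAD, was measured at 13.7, 12.0, 13.3, 14.8 and 13.0 FPKM in the controls and at 13.6, 16.5, 12.8, 13.5 and 12.7 FPKM in A-PDK1KO hearts. A-PDK1KO replicate 2 stood apart from its group, and the genotypes overlapped (log2 difference 0.04 ± 0.08, 95% interval -0.13 to 0.22, limma adjusted p = 0.867). In 5 of the 8 members the control coefficient of variation was between 10.1 and 21.1%, and the median over all genes was 13.3%.

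**Figure D3:**
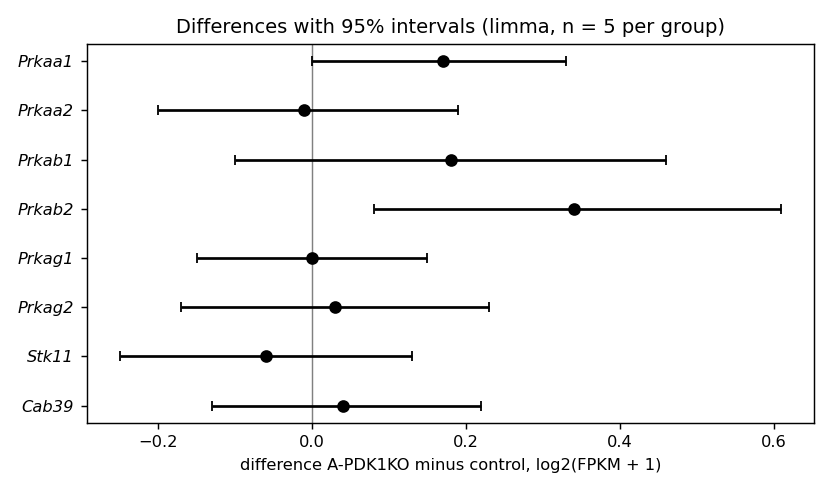
Difference between genotypes for each gene on the log2(FPKM + 1) scale (x axis, A-PDK1KO minus control), with 95% intervals from limma (n = 5 per group). Prkaa2, Prkag1, Prkag2, Stk11 and Cab39 lie near 0 with intervals within -0.25 and 0.23, and Prkab2 lies farthest from 0 at 0.34.

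From heart to heart, the members varied together to unequal degrees. After group means were subtracted from log2(FPKM + 1), the paralogue pairs correlated weakly over the 10 hearts, with a Pearson r of 0.03 for Prkaa1 and Prkaa2, 0.27 for Prkab1 and Prkab2 and 0.35 for Prkag1 and Prkag2. The strongest of the 28 pairs were Prkab1 with Stk11 (r = 0.89) and Prkab2 with Cab39 (r = 0.85). A-PDK1KO replicate 2 was the highest heart for both Prkab2 (16.1 FPKM) and Cab39 (16.5 FPKM), so their r leans on that heart. All 28 had an r above 0, the lowest being 0.01 for Prkaa1 with Prkab2. These values are descriptive, and the points of a pair share their library and its scaling. By the same measure, among 4601 genes averaging at least 5 FPKM, the genes most like Prkaa2 were Cul3 (r = 0.943), a ubiquitin ligase scaffold, Ccndbp1 (r = 0.941), a cyclin D-binding protein gene, and Slain2 (r = 0.937), a microtubule plus-end protein gene. They were picked as the largest of 4601 values over only 10 hearts, and how high such maxima reach by chance was not tested.

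Beyond the members, 8 lists of other pathway genes were read from the same fit. Of 65 genes tested, 3 rose and 0 fell (4.62%, against 2.08% of all genes), 9 had groups that did not overlap (13.8%, against 4.96%), and the median log2 difference was 0.05, against 0.02. The lists were chosen with earlier results of these data known, so these shares are a description and no test of the pathway. The called genes were Gys1 and Txnip in the list of glucose use and Ulk1 in that of growth, translation and autophagy. Gys1, the muscle glycogen synthase that AMPK phosphorylates, was measured at 15.5, 18.7, 20.6, 20.6 and 19.0 FPKM in control replicates 1 to 5 and, among A-PDK1KO hearts in the same order, at 24.2, 24.4, 24.1, 24.6 and 25.3 FPKM. Every A-PDK1KO heart was above every control, and the A-PDK1KO hearts lay close together (1.30-fold, log2 difference 0.37 ± 0.08 SE, limma adjusted p = 0.0317). Its call was lost without control replicate 2 or 5 or without any 1 of the A-PDK1KO hearts (adjusted p from 0.0511 to 0.0839), on the TPM scale (0.0908), with a replicate block (0.0545) and in the 6 hearts with Myl7 under 10 FPKM (0.422). In these settings the log2 difference was 0.36 to 0.39.

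Ulk1, the autophagy-starting kinase that AMPK activates, was measured at 9.40, 11.5, 10.9, 9.95 and 10.5 FPKM in the controls and at 12.5, 13.8, 14.1, 13.1 and 15.5 FPKM in A-PDK1KO hearts. The groups did not overlap (1.32-fold, log2 difference 0.37 ± 0.08, limma adjusted p = 0.0317), and the call was lost without control replicate 1, 3, 4 or 5 or A-PDK1KO replicate 2, 3 or 5 (adjusted p from 0.0509 to 0.0839), without control replicate 4 and A-PDK1KO replicate 2 together (0.0713), on the TPM scale (0.0768), with median-of-ratios factors (0.062) and in the 6 hearts with Myl7 under 10 FPKM (0.378). In these settings its log2 difference was 0.33 to 0.39. Txnip, which encodes a restraint on glucose uptake, was measured at 43.1, 55.4, 42.1, 57.2 and 45.5 FPKM in the controls and at 119.97, 220.6, 100.5, 93.8 and 88.4 FPKM for A-PDK1KO. The groups did not overlap, with A-PDK1KO replicate 2 far above the rest (48.7 ± 7.11 and 125 ± 55.0 FPKM, log2 difference 1.26 ± 0.21, limma adjusted p = 0.0127). It held its call in all 10 fits with 1 heart left out (log2 difference 1.04 to 1.36) and was lost in the 6 hearts with Myl7 under 10 FPKM, where the log2 difference was 1.51 (limma adjusted p = 0.115). In the list of growth, translation and autophagy genes, Ulk1 was the 1 called of 12 tested (8.33%, against 2.08% of all genes). Groups did not overlap for 4 of the 12 (33.3%, against 4.96% of all genes). This list too was chosen with earlier results known, so the counts are no test of it. The other 3 of these are named after their values were seen. Eef2k, the kinase that slows translation elongation, was at 5.64 ± 0.728 and 7.61 ± 0.703 FPKM (log2 difference 0.38, limma adjusted p = 0.0501), just short of the threshold. It passed in 9 of 23 alternatives, with an adjusted p as low as 0.0142, and its log2 difference was 0.35 to 0.44 over all 23. Pik3c3, the lipid kinase VPS34 of autophagy, was at 3.32 ± 0.570 and 4.60 ± 0.290 FPKM (limma adjusted p = 0.0714, passing in 1 of 22 alternatives at 0.0218, with scaling that omits mitochondrially encoded and haemoglobin genes), and the transcription factor gene Foxo1 at 2.22 ± 0.154 and 2.80 ± 0.287 FPKM (adjusted p = 0.163).

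**Figure D4:**
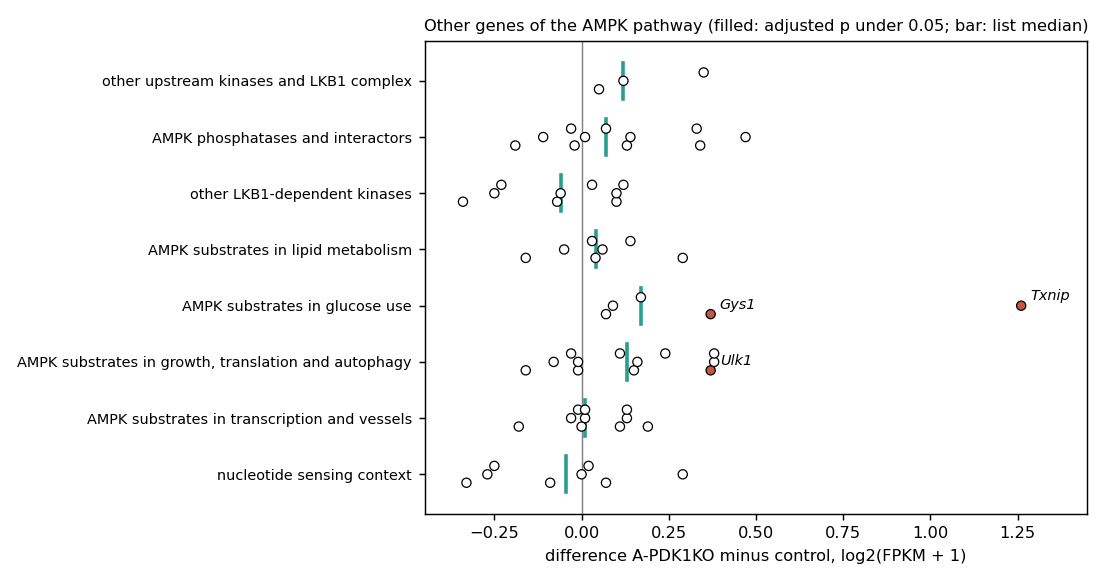
Log2(FPKM + 1) differences (x axis, A-PDK1KO minus control) of the other AMPK pathway genes tested, 1 point per gene, by list (vertical spread within a list has no meaning). Filled points are the 3 genes called, Gys1, Ulk1 and Txnip, green bars are list medians, and most open points lie within 0.4 of 0.

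Among the other upstream kinases and LKB1 partners 0 of 3 were called. Cab39l, the MO25 beta paralogue of Cab39, was at 2.37 ± 0.262 and 3.31 ± 0.635 FPKM with groups that did not overlap (unadjusted p = 0.0058, limma adjusted p = 0.121), while Stradb, an LKB1 pseudokinase partner, was at 7.33 ± 0.413 and 8.08 ± 0.530 FPKM and Map3k7, the kinase TAK1, at 5.11 ± 0.200 and 5.40 ± 1.22 FPKM. Among phosphatases and interacting proteins 0 of 11 were called. Cdkn1b, the cell cycle inhibitor p27, was at 6.10 ± 0.835 and 8.89 ± 1.76 FPKM (limma adjusted p = 0.0714), Ppm1e, a phosphatase gene, at 1.35 ± 0.434 and 1.95 ± 0.328 FPKM, and Sesn1, a sestrin gene, at 17.2 ± 2.64 and 22.2 ± 4.92 FPKM. Cab39l passed with scaling that omits mitochondrially encoded and haemoglobin genes (limma adjusted p = 0.0472), and Cdkn1b passed there (0.0294) and with a filter of 5 FPKM (0.0469).

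Of the other kinases that LKB1 activates, 0 of 9 were called. Nuak1, an AMPK-related kinase, was at 14.4 ± 2.11 and 11.1 ± 0.797 FPKM (log2 difference -0.34, limma adjusted p = 0.101), Snrk at 10.95 ± 2.62 and 9.05 ± 2.23 FPKM and Mark2 at 3.94 ± 0.706 and 4.38 ± 0.703 FPKM. Among substrates and regulated genes of lipid metabolism 0 of 7 were called. Srebf1, the lipogenic transcription factor gene, was at 2.08 ± 0.481 and 2.73 ± 0.182 FPKM (adjusted p = 0.187, 0.0368 without control replicate 4 and 0.0441 without that heart and A-PDK1KO replicate 2), Gpam, a glycerolipid acyltransferase gene, at 35.4 ± 2.72 and 39.2 ± 5.26 FPKM and Srebf2 at 3.05 ± 0.606 and 2.60 ± 0.298 FPKM.

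Transcription and vessel genes gave 0 calls of 10, with Hdac4 at 1.04 ± 0.230 and 1.33 ± 0.174 FPKM, Hdac5 at 7.96 ± 0.886 and 8.83 ± 1.02 FPKM and the clock gene Cry1 at 2.73 ± 0.352 and 2.30 ± 0.414 FPKM. Genes that set nucleotide levels gave 0 calls of 8. Nt5e, which encodes the AMP-hydrolysing ectoenzyme CD73, was at 1.63 ± 0.154 and 1.18 ± 0.196 FPKM with groups that did not overlap (log2 difference -0.27, limma adjusted p = 0.148). Ckm, the muscle creatine kinase, was at 689 ± 81.3 and 577 ± 27.9 FPKM (limma adjusted p = 0.160, and 0.0189 without control replicate 1).

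**Figure D5:**
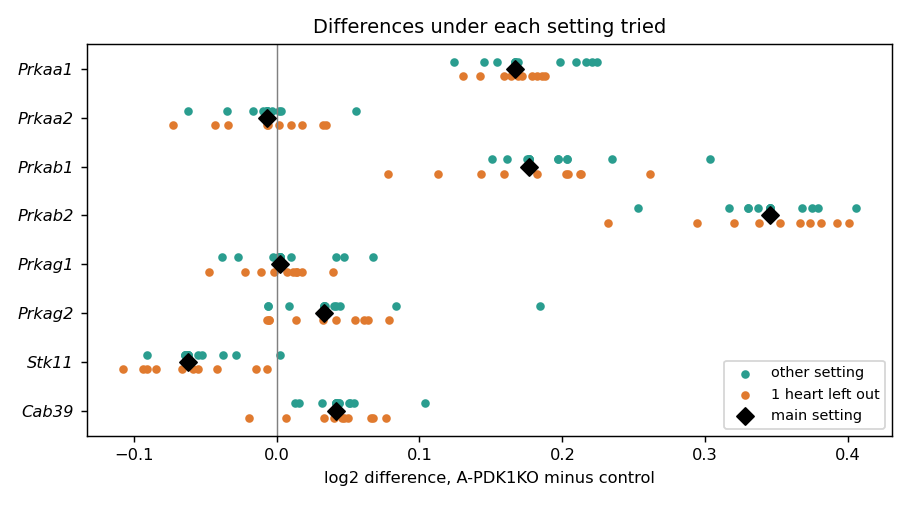
Log2 difference of each gene (x axis, A-PDK1KO minus control) in the main setting (diamonds), with 1 heart left out (orange) and under the other settings (green). Prkab2 stays between 0.23 and 0.41, Prkaa1 between 0.12 and 0.22 and Prkab1 between 0.08 and 0.30, and the points of Prkaa2, Prkag1, Prkag2, Stk11 and Cab39 fall on both sides of 0.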

How the data were processed

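Heart RNA of 10 samples (5 per genotype) was analysed from 1 table of FPKM deposited by the authors, with samples grouped by their titles. Trimmomatic 0.38, HISAT2 2.1.0 and featureCounts 1.6.3 were used, with build mm10, per the submitters' processing notes, and FastQC 0.11.7 per the labels' protocols. The sources used here do not give how the authors computed FPKM, the annotation or the strand setting. Dividing FPKM by the value of 1 read, with GENCODE release 21 (mouse) exon lengths, gave whole reads within 0.05 for 98.4% of values and library sizes of 9249257 to 11384423 reads. FPKM were tested as log2(FPKM + 1) with limma 3.58.1 in R 4.3.3 (empirical Bayes trend, two-sided), on genes averaging at least 1 FPKM, with Benjamini-Hochberg adjustment over all 9987. The step was tested on simulated reads. Shares, sums and motif counts were made in Python 3.11.15.

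The members and lists were chosen with earlier results of these data known. Named genes are all members, the called genes of each list or else its 3 of smallest p, and the 3 genes most like Prkaa2. Outside this rule, Eef2k, Pik3c3 and Foxo1 were named after their values were seen, and 1 gene within it is not reported here. Alternatives were other pseudocounts, filters, scalings and variances, a replicate block, a Myl7 covariate, 6 hearts with little Myl7 and each heart left out. Voom on recovered reads and removal of 2 libraries were chosen after seeing the data. Duplicate samples were checked for within each group, and every within-group pair differed beyond sampling noise. The deposited cluster numbers were not used.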

Additional observations from a re-analysis of the deposited data

Results flagged for a closer look

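In groups of 5 hearts, a value was singled out when its gap to the nearest heart exceeded 0.71 of the group's range. Of 70 groups checked 7 were singled out, and chance singles out about 1 group in 20. Among the members this was Cab39 in A-PDK1KO replicate 2, at 16.5 FPKM against 12.7 to 13.6 in the other 4. The same heart was singled out for Txnip, at 220.6 FPKM against 88.4 to 120.0. Control replicate 4 was singled out as high for Mark2 (5.18 against 3.44 to 3.81 FPKM) and for Srebf1 (2.92 against 1.72 to 2.01 FPKM). Control replicate 1 was singled out as low for Gpam (30.7 against 36.0 to 37.9 FPKM) and for Ckm (546 against 703 to 747 FPKM). A-PDK1KO replicate 4 was singled out as high for Cry1 (3.02 against 1.97 to 2.22 FPKM).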

How the results depend on the processing

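No member was called under any of the settings tried. The differences of Prkaa1, Prkab1 and Prkab2 stayed above 0 in all settings that could test them. Differences near 0 changed sign, all with an adjusted p of at least 0.744. Prkaa2 (-0.072 to 0.035 with 1 heart left out) moved from -0.01 to 0.0014 on the TPM scale, 0.056 with scaling without mitochondrial and haemoglobin genes, 0.0029 with quantile normalization, and 0.035, 0.018, 0.032, 0.002 and 0.0098 without control replicate 1 or 4 or A-PDK1KO replicate 1, 3 or 5. Prkag1 (-0.047 to 0.039) moved to -0.027 with median-of-ratios factors, -0.0027 with the Myl7 covariate, -0.011, -0.022, -0.047 and -0.0019 without control replicate 1 or 5 or A-PDK1KO replicate 2 or 4, and -0.038 without the 2 libraries of lowest mitochondrial share. Prkag2 (-0.0064 to 0.079) moved to -0.0063 with quantile normalization, -0.0064, -0.0054 and -0.005 without control replicate 3 or A-PDK1KO replicate 2 or 4, and -0.0058 without those 2 libraries. Stk11 (-0.11 without A-PDK1KO replicate 2 to -0.0064 without control replicate 4) moved to 0.0026 with scaling without mitochondrial and haemoglobin genes, Cab39 (-0.02 to 0.077) to -0.02 without A-PDK1KO replicate 2, and Map3k7 (-0.058 to 0.12) to -0.058 there and -0.039 without the 2 libraries. The 208 calls over all genes became 62 on the TPM scale, 390 (323 higher, 67 lower) with scaling without mitochondrial and haemoglobin genes, 4 in the 6 hearts with Myl7 under 10 FPKM, and 57 to 150 with 1 heart left out. The 3 pathway calls became 6 with a filter of 5 FPKM, where fewer genes are tested, 1 on the TPM scale, 7 with scaling without mitochondrial and haemoglobin genes, 0 in the 6 hearts, and 1 to 4 with 1 heart left out (1 without control replicate 5 or A-PDK1KO replicate 2, 3 or 5). The cause of these changes was not tested. The 6 hearts are fewer samples and were also chosen by Myl7, and these cannot be told apart. With a replicate block 153 genes, 0 members and 2 pathway genes were called. Same-numbered hearts had correlations of deviations from -0.116 to 0.0851, so the numbers were not taken as pairs. Isoform shares moved by less than 1 SD in every setting tried, but this was largely fixed in advance. A scaling factor common to a heart cancels in a share, and 1 heart left out cannot move a mean of 5 by 1 SD. Prkaa1 rests on as few as 95 reads in a heart, which limits its precision.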
